A study of Brassica rapa subsp. pekinensis with 8 samples.

Results

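The genes described here encode the GID1 gibberellin receptors and the DELLA proteins of Chinese cabbage (Brassica rapa). They were chosen as the rows of the expression table whose Arabidopsis locus is that of the receptors GID1A (AT3G05120), GID1B (AT3G63010) and GID1C (AT5G27320) or of the DELLA genes GAI (AT1G14920), RGA (AT2G01570) and RGL3 (AT5G17490), which gave 10 of 38008 genes. BrGID1B had 3 copies, BrGID1A and BrGID1C had 1 each, BrRGA had 3 and BrRGL3 had 2, and no row carried the GAI locus. Of these 10 genes, 9 had enough reads to be tested: the 5 receptor genes and 4 of the 5 DELLA genes. The remaining one, the BrRGA copy Bra009897, held raw counts of 1 to 3 in every library and no fold change is given for it.

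RNA came from seedlings of 2 inbred lines, line 4004, which bolts early, and line 50, which bolts late. No mutation or transgene is named for either, and each sample pooled several plants. The groups were line 4004 at day 35 (1 library), line 4004 at day 0 (1 library), line 50 at day 35 (3 libraries) and line 50 at day 0 (3 libraries), where the day counts vernalization, the long cold treatment that makes plants competent to flower. Seedlings were about 1 week old when the cold began, so plants at day 35 were also older, and they had been kept under shorter days than those at day 0. Cold, day length and age therefore cannot be told apart in any difference between the days. The labels give the tissue as leaf and the study's methods give it as shoots. Both line 4004 libraries carry replicate number 3, and those numbered 1 and 2 are not analysed here.

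Gibberellin is the hormone that drives stem elongation and, in Arabidopsis, promotes flowering. The soluble receptor GID1 binds gibberellin and then a DELLA protein, a nuclear repressor of growth, which is thereby marked for destruction by an SCF ubiquitin ligase. In Arabidopsis the 3 receptors overlap in function, RGA and GAI are the main DELLA proteins of stem growth, and RGL3 has been linked to jasmonate and defence signalling. Transcription of receptor genes and of late gibberellin synthesis genes is under feedback in Arabidopsis, rising when gibberellin signalling is low.

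A primer pair for quantitative PCR was designed by the study for the BrGID1C gene Bra009970. It is shown because it fixes which of the receptor genes was addressed by that assay, whose measurements are not part of the data used here. Each primer has 25 bases, written 5′ to 3′.
BrGID1C forward: tgtcatcatggatcgccaaaccaat
BrGID1C reverse: cttgctttgaagccagggtctcgag

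Library totals were 18.3 to 27.1 M counts. The 2 replicate 3 libraries of line 50 stood apart: they were the smallest (18.4 M at day 35 and 18.3 M at day 0), and their deviations from the group means across genes correlated with each other (0.69) and inversely with those of replicates 1 and 2 of the other day (-0.50 to -0.66). Member calls that change without them are given both ways. In the plots and sentences, levels are normalized read counts as deposited, which compare libraries for 1 gene and not genes with each other, because they are not divided by gene length. A gene was called when its edgeR adjusted p was under 0.05 and its log2 fold change was at least 1 in size. Counts of genes at an unadjusted p, with or without the block, are descriptions only, given without the share of all genes at that p.

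The 3 BrGID1B copies were the receptor genes called higher in line 50 at day 35 than at day 0. By the edgeR fit they had 5.63 to 11 times as many reads at day 35 as at day 0, while no DELLA gene was called. Of the 9 genes tested, 3 were called higher and 0 lower, against 2.23% higher and 1.69% lower (3.92% in all) of the 31191 genes tested. At an unadjusted p under 0.05 there were 4, and DESeq2 also called 3, as did a fit with the replicate number as a block, in which 15.6% of all genes were called.

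The copy Bra007722 had 253, 222 and 240 normalized reads in replicates 1, 2 and 3 of line 50 at day 35, against 24, 12 and 29 at day 0. Every day 35 library was thus far above every day 0 library, and the replicates at day 35 differed by little. The log2 fold change was 3.46 ± 0.39 (SE, edgeR adjusted p = 0.0107).

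The copy Bra040420 had 104, 94 and 100 normalized reads at day 35, against 17, 9 and 23 at day 0, again without overlap (log2 fold change 2.64 ± 0.42 SE, edgeR adjusted p = 0.0253). For the third, Bra003520, the values were 84, 100 and 103 at day 35, against 17, 12 and 23 at day 0 (2.49 ± 0.38 SE, edgeR adjusted p = 0.0231). In all 3 copies replicate 2 gave the lowest day 0 value and the largest paired fold, at 18.5 for Bra007722, 10.4 for Bra040420 and 8.33 for Bra003520. Of all genes tested, 12.4% had every day 35 library of line 50 above every day 0 library.

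The calls depended on which line 50 replicates were kept. Without replicate 3 of line 50, the 3 copies remained called, with log2 fold changes of 3.71, 2.93 and 2.66 (edgeR adjusted p = 0.000395, 0.00108 and 0.000955). Without replicate 1 or without replicate 2, none of the 3 was called: the log2 fold changes were 2.25 to 3.49 and the adjusted p-values 0.218 to 0.433. Leaving out any single line 50 library of replicate 1 or 2 also ended all 3 calls. Without replicate 1 or 2 on both days, 0 of all genes were called, against 1224 with every library. Over all the alternatives run, the adjusted p of Bra007722 spanned 2.03e-14 to 0.252.

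The copies kept nearly the same pattern over the 8 libraries, with Pearson correlations of 0.99 to 1.0 between their log2 values, though the libraries fall into day and line groups and this describes them only. Their shares were not constant. Bra007722 held 57.3%, 53.3% and 54.0% of the BrGID1B reads at day 35 in line 50, against 41.0%, 37.8% and 39.1% at day 0, with no overlap between the days. In line 4004 it held 54.1% at day 35 and 50.9% at day 0. How reads matching several copies were counted is not stated in the sources used here, so the values of single copies are less certain than their sum, which was 416 to 443 normalized reads at day 35 and 33 to 75 at day 0 in line 50.

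**Figure D1:**
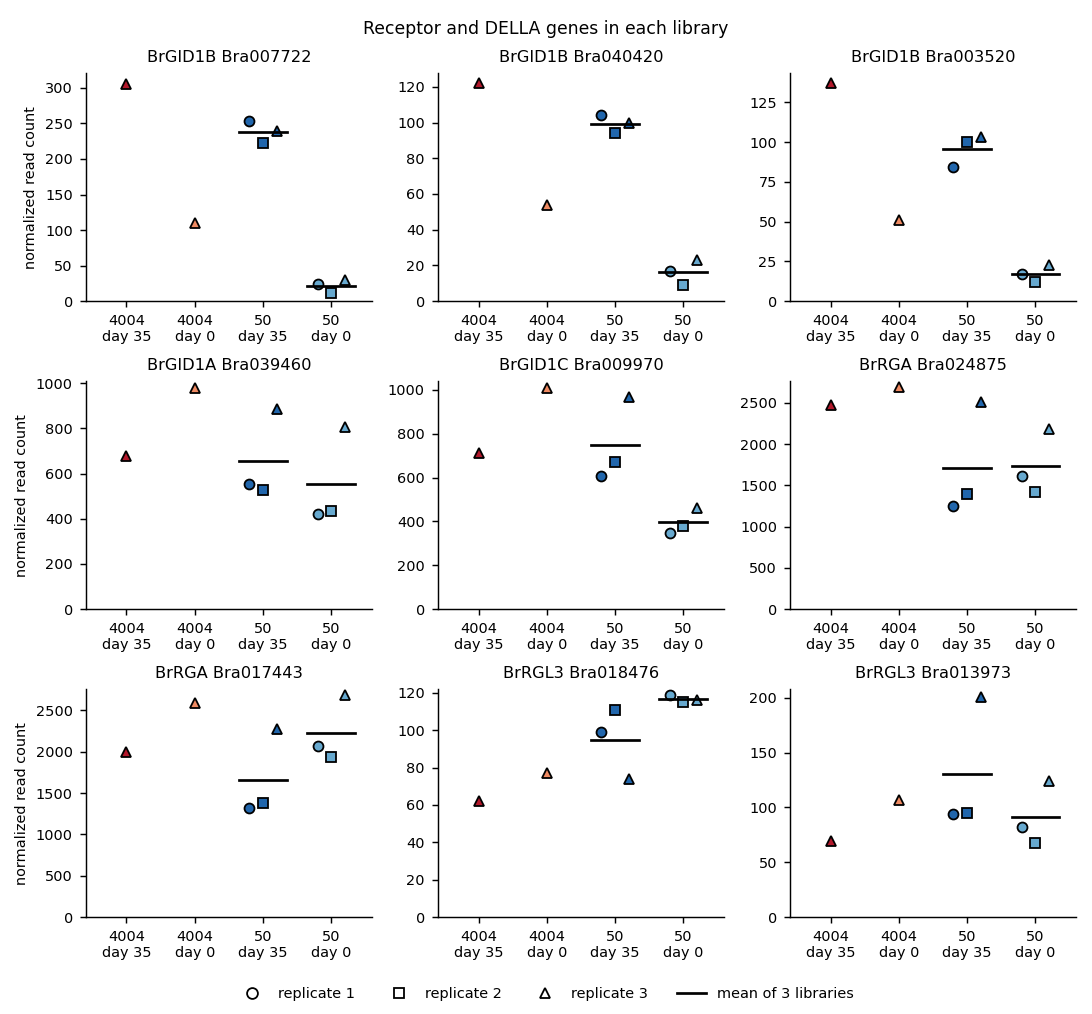
Normalized read counts (y axes, linear, from 0) of the 9 tested genes in each library, by line and day, with point shape for the replicate and a bar for the mean of the 3 line 50 libraries. The 3 BrGID1B genes of the top row lie at 84 to 253 in line 50 at day 35 and at 9 to 29 at day 0, whereas several other genes are split mainly by replicate 3.

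BrGID1C was also higher in every day 35 library of line 50, but by less. Its gene Bra009970 had 609, 670 and 968 normalized reads at day 35, against 346, 379 and 462 at day 0. The groups did not overlap, the paired folds were 1.76, 1.77 and 2.1, and the log2 fold change was 0.94 ± 0.31 (SE, edgeR adjusted p = 0.15, 95% interval 0.20 to 1.68). With the replicate number as a block, the adjusted p was 0.0106 at a log2 fold change of 0.92, under the size required for a call, and 23.9% of all genes had an adjusted p under 0.05 in that fit. Without replicate 3 of line 50 the values were 0.84 and 0.00201.

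BrGID1A (Bra039460) had 555, 529 and 886 normalized reads at day 35 in line 50, against 419, 433 and 805 at day 0. Replicate 3 was the highest on both days and the groups overlapped. The log2 fold change was 0.26 ± 0.41 (SE, edgeR adjusted p = 0.802), with a 95% interval of -0.71 to 1.23 that includes a doubling. Without replicate 3 of line 50 it was 0.37 (edgeR adjusted p = 0.021), under the size required for a call.

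None of the 4 tested DELLA genes was called in line 50, by edgeR, by DESeq2 or with the replicate block. With all libraries and no block, none reached an unadjusted p under 0.05 in edgeR. The BrRGA copy Bra024875 had 1248, 1394 and 2507 normalized reads at day 35, against 1611, 1419 and 2179 at day 0 (log2 fold change 0.01 ± 0.40 SE, edgeR adjusted p = 0.993, 95% interval -0.92 to 0.94). The days overlapped and replicate 3 was the highest on each. The copy Bra017443 had 1321, 1378 and 2276 at day 35, against 2066, 1941 and 2686 at day 0. Each pair was lower at day 35, by factors of 0.639 to 0.847, and the days overlapped (-0.40 ± 0.35 SE, edgeR adjusted p = 0.597, interval -1.22 to 0.42). With the replicate block it was -0.44 ± 0.16 (SE, edgeR unadjusted p = 0.0317, adjusted p = 0.093), not a call. Without replicate 3 of line 50 the log2 fold change of Bra017443 was -0.55 (edgeR adjusted p = 0.00424), under the size required for a call, and that of Bra024875 was -0.18 (edgeR adjusted p = 0.212).

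The 2 BrRGL3 copies had opposite signs. Bra018476 had 99, 111 and 74 normalized reads at day 35 in line 50, against 119, 115 and 116 at day 0. All 3 day 35 values lay below all 3 day 0 values, as for 12.9% of all genes tested (log2 fold change -0.29 ± 0.26 SE, edgeR adjusted p = 0.613, interval -0.91 to 0.33). Bra013973 had 94, 95 and 201 at day 35, against 82, 68 and 124 at day 0 (0.53 ± 0.48 SE, edgeR adjusted p = 0.612, interval -0.59 to 1.65), with replicate 3 the highest on both days. The Pearson correlation of the 2 copies over the 8 libraries was -0.19, whereas that of the 2 expressed BrRGA copies was 0.80.

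In line 4004 the BrGID1B copies were likewise higher at day 35, in a comparison of 1 library with 1 that has no replicates of its own and was not tested. Bra007722 had 306 normalized reads at day 35 (exact Poisson 95% interval 273.2 to 341.8) and 110 at day 0 (90.5 to 132.3), a ratio of 2.78. Bra040420 had 122 at day 35 and 54 at day 0, a ratio of 2.26, and Bra003520 had 137 and 51, a ratio of 2.69. A ratio of at least 2 was found for 8.53% of all genes tested. These intervals cover counting error only.

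The other members had ratios below 1 in line 4004. BrGID1C had 714 normalized reads at day 35 (663.7 to 768.0) and 1006 at day 0 (945.1 to 1069.7), a ratio of 0.71, and BrGID1A had 678 at day 35 and 981 at day 0, a ratio of 0.69. Both receptors were thus lower at day 35 in the line 4004 pair and higher at day 35 in each line 50 pair, as were 5.31% of all genes tested. For the DELLA genes the ratios were 0.92 for Bra024875, 0.77 for Bra017443, 0.81 for Bra018476 and 0.64 for Bra013973.

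At day 0, before vernalization, all 5 receptor genes had more reads in line 4004 than in every line 50 library, as did 33% of all genes tested, but none was called. Bra007722 had 110 normalized reads in line 4004, against 24, 12 and 29 in line 50. The log2 difference was 2.28 ± 0.47 (SE, edgeR adjusted p = 0.0809, 95% interval 1.17 to 3.39). With the replicate block it was 2.05 (edgeR adjusted p = 0.0389) and was called, and DESeq2 called it as well (adjusted p = 0.00289), while over all alternatives the adjusted p spanned 0.00163 to 0.609. In this comparison edgeR called 0 of the 9 genes, against 1.49% of all genes, and 4 had an unadjusted p under 0.05. The block fit called 1 of the 9, against 7.58% of all genes. This comparison uses the same line 50 day 0 libraries as the comparison of the days. Line 4004 has only replicate number 3, so the block takes the deviation of line 50 replicate 3 as shared by line 4004. That the lines shared replicates is not stated in the sources, and the same holds for block values between the lines at day 35.

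The other BrGID1B copies had 54 normalized reads in line 4004, against 17, 9 and 23 in line 50 (Bra040420, log2 difference 1.69 ± 0.53 SE, edgeR adjusted p = 0.221, interval 0.43 to 2.95), and 51 in line 4004, against 17, 12 and 23 (Bra003520, 1.53 ± 0.49 SE, edgeR adjusted p = 0.231, interval 0.37 to 2.69). BrGID1C had 1006 in line 4004, against 346, 379 and 462 in line 50, a log2 difference of 1.28 ± 0.41 (SE, edgeR adjusted p = 0.23, interval 0.31 to 2.25). BrGID1A had 981 in line 4004, against 419, 433 and 805 in line 50, with replicate 3 nearest to line 4004 (0.75 ± 0.56 SE, edgeR adjusted p = 0.661, interval -0.57 to 2.07).

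When replicate 3 of line 50 was left out, all 5 receptor genes were called higher in line 4004 at day 0, together with 8712 of all genes. The log2 differences were then 2.57 for Bra007722, 2.03 for Bra040420, 1.80 for Bra003520, 1.47 for BrGID1C (edgeR adjusted p = 0.000552) and 1.20 for BrGID1A (edgeR adjusted p = 0.000688). In that fit line 4004 is represented by replicate number 3 and line 50 by numbers 1 and 2, so line and replicate number cannot be told apart.

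In the edgeR fit of all libraries, and in the same fit with the block, none of the 4 tested DELLA genes reached an unadjusted p under 0.05 between the lines at day 0. Bra024875 had 2691 normalized reads in line 4004, against 1611, 1419 and 2179 in line 50 (log2 difference 0.56 ± 0.54 SE, edgeR adjusted p = 0.758). Bra017443 had 2586 in line 4004, against 2066, 1941 and 2686 in line 50, within the line 50 range. Without replicate 3 of line 50 the log2 difference was 0.82 for Bra024875 and 0.36 for Bra017443, under the size required for a call. Bra018476 had 77, against 119, 115 and 116, below every line 50 library (-0.64 ± 0.39 SE, edgeR adjusted p = 0.568), which held for 22.8% of all genes, and Bra013973 had 107, against 82, 68 and 124.

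At day 35 no member was called between the lines. Line 4004 had 306, 122 and 137 normalized reads of Bra007722, Bra040420 and Bra003520, above each line 50 library as for 26.2% of all genes, but the log2 differences were only 0.28 ± 0.48, 0.20 ± 0.53 and 0.44 ± 0.48 (SE), and the interval for Bra007722 was -0.85 to 1.41. BrGID1A in line 4004 (678 normalized reads) and BrGID1C (714) lay inside the line 50 ranges of 529 to 886 and 609 to 968. Of the 9 genes 0 were called by edgeR, against 0.446% of all genes, 0 had an unadjusted p under 0.05, and DESeq2 called 0. The replicate block also called 0, against 0.952% of all genes, with 3 at an unadjusted p of at most 0.05. These were BrGID1A, BrGID1C and BrRGL3 Bra013973.

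Both BrRGL3 copies were lower in line 4004 at day 35 than in every line 50 library, as were 16% of all genes. Without replicate 3 of line 50 the log2 differences were -0.77 for Bra018476 and -0.48 for Bra013973. Bra013973 had 69 normalized reads in line 4004, against 94, 95 and 201 in line 50 (log2 difference -1.01 ± 0.71 SE, edgeR adjusted p = 1, interval -2.69 to 0.67). With the replicate block its difference was -1.62 ± 0.32 (SE, edgeR unadjusted p = 0.00256, adjusted p = 0.0789). Bra018476 had 62 in line 4004, against 99, 111 and 74 in line 50 (-0.68 ± 0.39 SE, edgeR adjusted p = 1, interval -1.60 to 0.24).

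The BrRGA copy Bra024875 had 2480 in line 4004 at day 35, against 1248, 1394 and 2507 in line 50 (0.42 ± 0.55 SE), and Bra017443 had 1999, against 1321, 1378 and 2276 (0.17 ± 0.49 SE), both inside the line 50 range. Replicate 3 set the top of both ranges. Without replicate 3 of line 50 the log2 differences were 0.88 for Bra024875 and 0.54 for Bra017443, under the size required for a call. With the block the difference was -0.65 ± 0.22 for BrGID1A (SE, edgeR adjusted p = 0.164), against -0.05 ± 0.58 without it, and -0.55 ± 0.22 for BrGID1C (SE, edgeR adjusted p = 0.207), against -0.16 ± 0.44 without it.

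**Figure D2:**
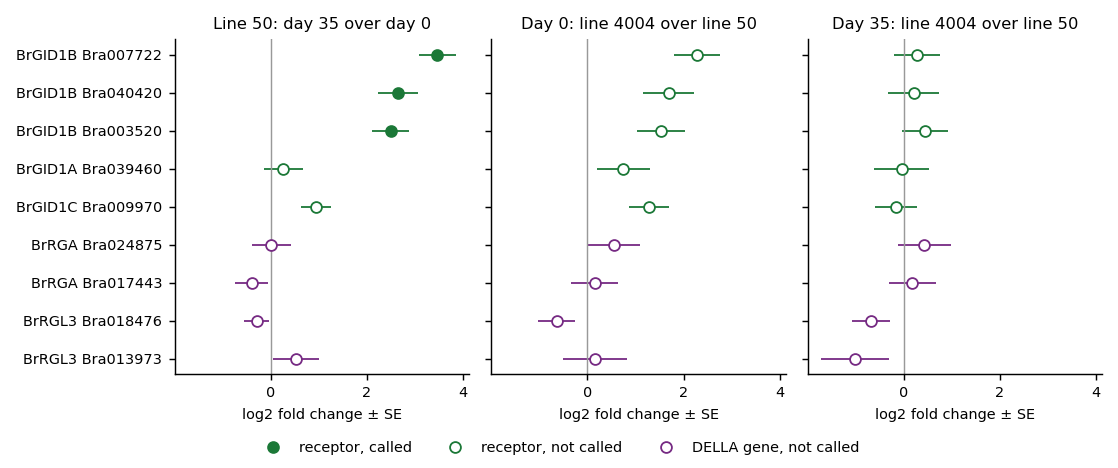
Log2 fold changes (x axes, edgeR, bars are ± 1 SE) of the 9 tested genes for line 50 at day 35 over day 0, and for line 4004 over line 50 at day 0 and at day 35, with filled points for called genes. The 3 BrGID1B genes are the filled points, at 2.49 to 3.46, and the receptor differences between lines are 0.75 to 2.28 at day 0 and -0.16 to 0.44 at day 35.

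Ordered by level, the 3 BrGID1B copies had the same sequence of groups: line 4004 at day 35, line 50 at day 35, line 4004 at day 0 and line 50 at day 0, with no overlap between neighbours. The single line 4004 library lay above every line 50 library for 26.2% of all genes at day 35 and 33% at day 0. At day 35 the edgeR log2 differences of the copies were only 0.20 to 0.44. With the replicate block they were 0.01 for Bra007722, -0.1 for Bra040420 and 0.11 for Bra003520. For Bra040420 the exact Poisson interval in line 4004 at day 35 was 101.5 to 145.1. It includes the highest line 50 value at day 35, 104, so that step is within counting error. The intervals of Bra007722 (273.2 to 341.8) and Bra003520 (115.8 to 162.0) lay above every line 50 value at day 35. The share of all genes with this whole order was not computed. BrGID1C was highest in line 4004 at day 0 (1006) and lowest in line 50 at day 0 (mean 395.7 ± 59.8, SD, n = 3), and the 2 groups at day 35 between them overlapped. BrGID1A was also highest in line 4004 at day 0, and its other groups overlapped their neighbours from line 4004 at day 35 downwards.

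The difference between the lines in the change over vernalization was tested as an interaction. It was negative for all 5 receptor genes, at -2.0 ± 0.71 for Bra007722 (SE, edgeR unadjusted p = 0.0264, adjusted p = 1), -1.49 ± 0.78 for Bra040420, -1.09 ± 0.71 for Bra003520, -1.45 ± 0.62 for BrGID1C (edgeR unadjusted p = 0.0525, adjusted p = 1) and -0.80 ± 0.82 for BrGID1A. EdgeR called 0 of the 9 genes and 0% of all genes. DESeq2 called 0 of the 9 and 69 of all genes. The counts at an unadjusted p that follow are descriptions only, without the share of all genes at that p, and are no result about the members. Without the block only 1 member, Bra007722, had an unadjusted p under 0.05 in the edgeR test. The replicate block called 0 members and 0% of all genes, and 5 members had an unadjusted p under 0.05 in it: BrGID1C (-1.42 ± 0.28 SE, edgeR unadjusted p = 0.00251, adjusted p = 0.231), Bra007722 (-2.05 ± 0.45 SE, 0.0043 and 0.263), BrGID1A (-0.84 ± 0.28 SE, 0.0238 and 0.421), Bra040420 (-1.55 ± 0.53 SE, 0.0271 and 0.439) and Bra013973 (-1.11 ± 0.39 SE, 0.031 and 0.457). Without replicate 3 of line 50, 2 members were called, Bra007722 (-2.24, edgeR adjusted p = 0.0309) and BrGID1C (-1.34, edgeR adjusted p = 0.0178), together with 2012 of all genes.

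Setting receptor reads against BrRGA reads within each library removes the scaling between libraries. In line 4004, 12.6 BrGID1B reads per 100 BrRGA reads were counted at day 35 and 4.09 at day 0. In line 50 the values were 17.2, 15 and 9.27 at day 35 and 1.59, 1.01 and 1.53 at day 0, with replicate 3 the lowest at day 35 and no overlap. The ratio of the line 50 means was 10, that of replicate 3 alone 6.06 and that of line 4004 3.08.

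BrGID1C had 23.7, 24.2 and 20.2 reads per 100 BrRGA reads at day 35 in line 50, against 9.40, 11.3 and 9.49 at day 0, and 15.9 at day 35 against 19.1 at day 0 in line 4004. BrGID1A had 21.6, 19.1 and 18.5 at day 35 in line 50, against 11.4, 12.9 and 16.5 at day 0. On this ratio its days did not overlap, whereas its own normalized reads did. The BrRGA sum was 2570, 2773 and 4786 normalized reads at day 35 in line 50, against 3678, 3361 and 4868 at day 0. The share of all genes without overlap on such a ratio was not computed. All receptor reads together made 62.5, 58.2 and 48.0 per 100 BrRGA reads at day 35 in line 50, against 22.4, 25.2 and 27.5 at day 0. In line 4004 they made 43.7 at day 35 and 41.7 at day 0, a ratio of 1.05, against 2.25 for the line 50 means.

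BrGID1B gave 27.5%, 25.8% and 19.3% of all receptor reads at day 35 in line 50, against 7.12%, 4.03% and 5.54% at day 0, and 28.9% at day 35 against 9.80% at day 0 in line 4004. These shares are not corrected for gene length and serve only to compare libraries. No test was run on them.

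**Figure D3:**
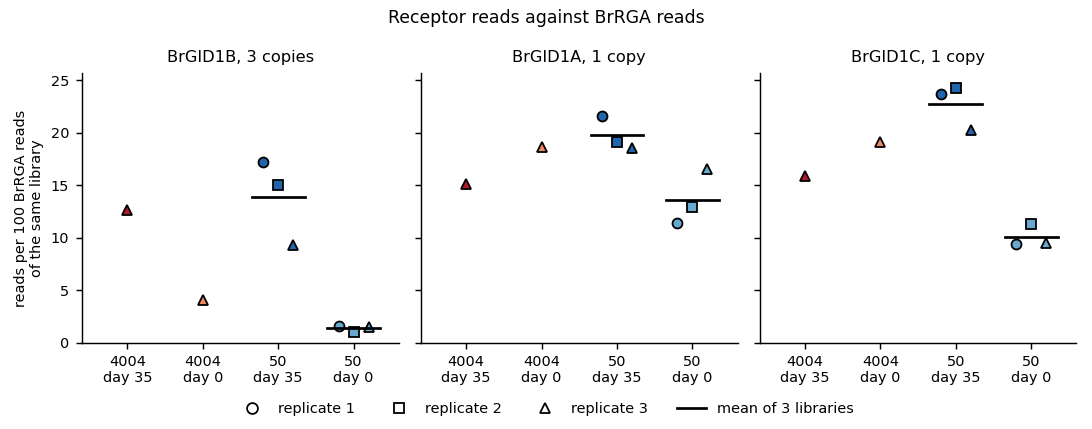
Reads of the 3 BrGID1B copies together, of BrGID1A and of BrGID1C per 100 BrRGA reads of the same library (y axis, linear, from 0), by line and day, with point shape for the replicate and a bar for the mean of 3 libraries. BrGID1B is at 9.27 to 17.2 at day 35 and 1.01 to 1.59 at day 0 in line 50, and BrGID1C at 20.2 to 24.2 and 9.40 to 11.3, whereas BrGID1C in line 4004 is at 15.9 at day 35 and 19.1 at day 0.

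Genes that act around the receptors were taken from 6 lists by Arabidopsis locus, with 78 genes of which 66 were tested. In line 50 at day 35 against day 0, 3 were called higher, 2 lower and 61 neither, beside 2.23% higher and 1.69% lower of all genes. The block fit called 5 higher and 9 lower, beside 15.6% of all genes in either direction, and DESeq2 called 8, beside 2954 of all genes. The 2 further higher calls of the block fit were a second BrGA1 copy, Bra036239, named for this call, and BrSCL3 Bra014251. The median log2 fold change was 2.49 over the 5 receptor genes and -0.14 over the 4 DELLA genes, beside 0.01 over all genes tested. The BrGID1B copies make 3 of the 5 receptor values, and the median is that of Bra003520. BrGID1A and BrGID1C were at 0.26 and 0.94, neither called.

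Of 15 tested gibberellin synthesis genes, 1 rose and 1 fell, with a median of 0.46. The BrGA1 copy Bra000864, which encodes the copalyl diphosphate synthase of the first committed step, had 181, 454 and 191 normalized reads at day 35 in line 50, against 23, 58 and 33 at day 0 (log2 fold change 2.84 ± 0.52 SE, edgeR adjusted p = 0.0359). In line 4004 it had 261 at day 35 and 19 at day 0. The BrGA20OX3 copy Bra009285, one of the GA 20-oxidases of the late steps, had 55, 73 and 49 at day 35, against 192, 183 and 124 at day 0 (-1.47 ± 0.29 SE, edgeR adjusted p = 0.0456). The days did not overlap in either gene. The block fit also called the BrGA20OX3 copies Bra005927 (-1.09, edgeR adjusted p = 0.00964) and Bra028706 (-1.19, 0.0123) lower, named for these calls. Their days did not overlap either.

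Of 7 tested gibberellin inactivation genes, 1 rose, with a list median of 0.56. It was the GA 2-oxidase copy BrGA2OX1 Bra035038, at 11, 15 and 11 normalized reads at day 35 in line 50 and 2 in each library at day 0 (2.49 ± 0.43 SE, edgeR adjusted p = 0.0316), so this call rests on very few reads. Of 13 tested DELLA partners, the transcription factors that DELLA proteins bind, 1 rose, with a median of 0.57. BrPIF3 Bra020017, a bHLH factor of light signalling, had 681, 757 and 829 normalized reads at day 35 in line 50, against 354, 241 and 215 at day 0 (1.51 ± 0.27 SE, edgeR adjusted p = 0.0325).

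Of the 9 genes for receptor regulation, DELLA turnover and other DELLA proteins, edgeR called 0, with 1 at an unadjusted p under 0.05 and 0 called by DESeq2, and the median was -0.79. The smallest adjusted p belonged to BrRGL1 Bra039762, another DELLA gene. It had 175, 170 and 277 normalized reads at day 35 in line 50, against 451, 484 and 270 at day 0, so the days overlapped through replicate 3 (-0.91 ± 0.34 SE, edgeR adjusted p = 0.197; with the block -0.95 and 0.085). In line 4004 it had 134 at day 35 and 196 at day 0. The block fit called 3 others of the list lower, named because of these values: 2 copies of BrSNE, an F-box relative of SLY1, which recruits DELLA proteins to the SCF ligase (Bra020714 at -1.75, edgeR adjusted p = 0.0136, and Bra036183 at -1.67, 0.028), and BrRGL2 Bra031991, also a DELLA gene (-1.45, 0.00704).

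Of the 11 genes known in Arabidopsis to be induced by DELLA proteins, edgeR called 0 (2 at an unadjusted p under 0.05, 0 by DESeq2), with a median of 0.54. BrSCL3 Bra014251, a GRAS protein gene, had 655, 648 and 673 normalized reads at day 35 in line 50, against 303, 184 and 472 at day 0 (1.04 ± 0.39 SE, edgeR adjusted p = 0.196), and it was called with the replicate block (1.16, edgeR adjusted p = 0.0289). Of the 11 genes known to be induced by gibberellin, 1 fell and the median was -0.76. This was BrGASA6 Bra008162, which encodes a small cysteine-rich peptide, at 135, 181 and 242 normalized reads at day 35 in line 50, against 1160, 1480 and 861 at day 0 (-2.60 ± 0.34 SE, edgeR adjusted p = 0.0148). The block fit also called the BrGASA4 copies Bra023513 (-1.08, edgeR adjusted p = 0.0418) and Bra006291 (-1.19, 0.0377) lower, named for these calls. Calls in these lists, like those of BrGID1B, were absent without replicate 1 or 2 of line 50, where no gene of the table was called.

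**Figure D4:**
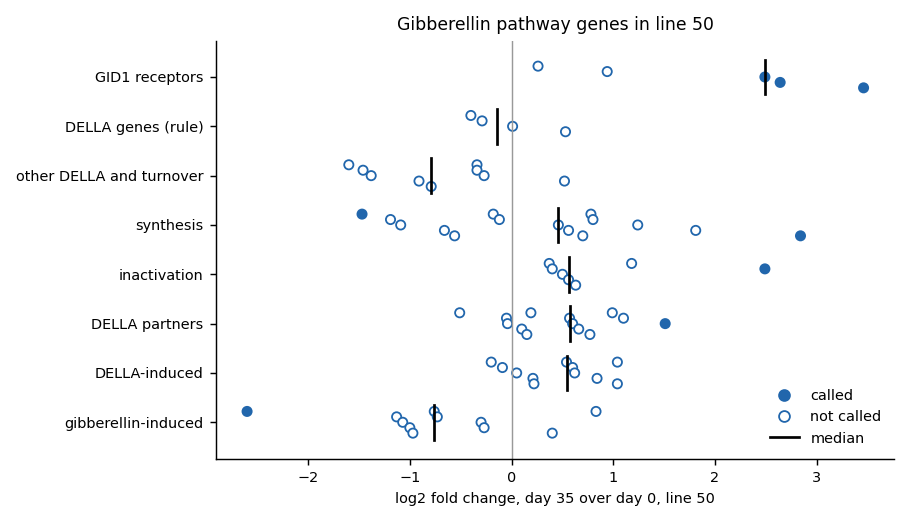
Log2 fold change of each tested gene at day 35 over day 0 in line 50 (x axis, edgeR), by list, with filled points for called genes and a bar for the list median. The 3 BrGID1B genes at 2.49 to 3.46 are the filled points of the receptor row, and the medians are 2.49 for the receptors, -0.14 for the DELLA genes and -0.79 to 0.57 for the 6 other lists.

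Between the lines at day 0, 0 of the 66 genes were called higher in line 4004 and 1 lower, beside 1.49% of all genes in either direction. The block fit called 2 higher and 8 lower, beside 7.58% of all genes. The gene called was BrGASA6, at 113 normalized reads in line 4004 and a mean of 1167.0 ± 309.6 in line 50 (SD, n = 3, log2 difference -3.41 ± 0.57 SE, edgeR adjusted p = 0.0429). Over the alternatives its adjusted p spanned 2.27e-07 to 0.322, and without replicate 1 or replicate 2 of line 50 no more than 2 and 3 genes of the whole table were called. BrGA2OX2 Bra032354, a GA 2-oxidase gene, had 259 in line 4004, against 39, 28 and 27 in line 50 (2.98 ± 0.53 SE, edgeR adjusted p = 0.0514). With the block it was called (2.54, edgeR adjusted p = 0.0379), as was a second copy, Bra030187, named for this call. BrGA20OX3 Bra005927 had 35 in line 4004, against 262, 354 and 178 in line 50 (-2.97 ± 0.57 SE, edgeR adjusted p = 0.0637), and with the block it was called (-2.55, edgeR adjusted p = 0.0183). At day 35 edgeR called 0 of the 66 genes, 7 had an unadjusted p under 0.05 and DESeq2 called 2, both gibberellin synthesis genes.

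Among 9200 genes with a symbol and a mean of at least 100 normalized reads, those most alike to each receptor over the 8 libraries were found by Pearson correlation of log2 values. For BrGID1B Bra007722 they were BrIIL1 (r = 0.991), BrGCN5 Bra031898 (0.99) and BrCYP709B2 (0.988). BrCYP709B2 Bra004492, a cytochrome P450 gene, had 463, 445 and 480 normalized reads at day 35 in line 50, against 29, 18 and 52 at day 0, with 416 at day 35 and 127 at day 0 in line 4004. For BrGID1C they were BrERF8 (0.992), BrAIB (0.977) and BrNDL2 (0.974), and for BrGID1A BrCIPK14 (0.989), BrHB-1 (0.98) and BrbZIP11 (0.98).

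The DELLA genes resembled other genes. For BrRGA Bra017443 the most alike were BrSMT2 (0.992), BrPYR1 (0.985) and BrRALFL33 (0.982), and for BrRGL3 Bra013973 they were BrFAO3 (0.947), BrNF-YC2 (0.935) and BrPAL4 (0.932). The points share their libraries, days and lines, so these values are descriptions.

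Markers of cell types were read beside the BrGID1B change. Leaf markers were abundant in all libraries, and edgeR called 0 of 13 at day 35 against day 0 in line 50, with 0 at an unadjusted p under 0.05 and 0 by DESeq2. Between the lines at day 0 all 13 were lower in line 4004, with a median log2 difference of -0.84, beside -0.04 over all genes tested. Their sum at day 0 was 1009222 in line 4004 and 1131728 to 2404043 in line 50. Of 7 shoot meristem marker genes, 3 were tested and 2 rose: BrSTM Bra027050 with 59, 52 and 66 normalized reads at day 35, against 1, 2 and 2 at day 0, and BrKNAT1 Bra000638 with 81, 67 and 115, against 1, 1 and 2. In the line 4004 libraries BrSTM had 24 normalized reads at day 35 and 1 at day 0, and BrKNAT1 had 26 and 1. BrCLV1 Bra015812 had 530 and 470 there. BrCLV3 and BrWUS copies held at most 3 counts in every day 35 library. The summed meristem marker level was 622 to 1605 at day 35 (622 to 690 without replicate 3) and 718 to 900 at day 0 in line 50, and in line 4004 it was 586 at day 35 and 476 at day 0. Most of this sum came from the third tested gene, BrCLV1 Bra015812, with 478, 564 and 1416 at day 35, against 712, 875 and 888 at day 0 in line 50 (log2 fold change 0.04 ± 0.48 SE, edgeR adjusted p = 0.979), so it does not follow BrSTM and BrKNAT1.

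Of 9 root marker genes, 7 were tested and 3 rose in line 50, all copies of the phosphate transporter gene PHT1;4, and the summed level was 2628 to 8939 at day 35 (8838 to 8939 without replicate 3) and 616 to 1264 at day 0. In line 4004 it was 7296 at day 35 and 1598 at day 0. Most of this sum came from the PHT1;4 copies. The tested BrRHD2 copy Bra029194 had 13, 9 and 3 normalized reads at day 35 in line 50, against 4, 11 and 3 at day 0. Its log2 fold change was 0.46 ± 0.57 (SE, edgeR adjusted p = 0.732). BrPRP3 and the other BrRHD2 copy held at most 4 normalized reads in every library. Of 7 dividing cell markers edgeR called 0 in line 50 (2 at an unadjusted p under 0.05, 0 by DESeq2). Between the lines at day 0, 1 of these 7 was lower in line 4004, and their sum was 647 in line 4004 and 1286 to 2347 in line 50. The part of these marker differences in the receptor results was not tested. In bulk RNA, a change in the share of cells of a type and a change in RNA per cell cannot be told apart.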

How the data were processed

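The authors trimmed reads with SolexaQA and mapped them to Brassica rapa coding genes with Bowtie2, and how they then counted reads is not stated in the sources used here. The deposited raw counts were never below 1 in any library, and 676 genes held 1 throughout, as if 1 had been added, and they were analysed unchanged. Deposited normalized read counts (a score, scaled by the authors with DESeq over these and 4 further libraries and rounded) describe levels. Deposited log2 ratios of group means were not used.

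Tests on the counts used edgeR 4.0.16 under R 4.3.3 (TMM, filterByExpr, quasi-likelihood F test, all 8 libraries, Benjamini-Hochberg over 31191 genes). The 4 residual degrees of freedom of this fit stem from line 50, whose spread also stands in for line 4004, and the biological coefficient of variation was 0.398. The block fit and the fits with left-out line 50 libraries had fewer residual degrees of freedom. The procedure was tested on simulated data. Alternatives were DESeq2 1.42.0, other scalings and filters, counts less 1, the replicate block and left-out libraries.

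The edgeR fit without the block did not pair samples. Same-numbered line 50 samples deviated together (correlations 0.45, 0.62 and 0.69) and were taken as pairs only in the paired folds and the block fit. Replicates 1 and 2 correlated similarly across numbers (0.47 and 0.56), so these values mainly set replicate 3 apart. No source states separate growths, so p-values measure the spread between these samples. Members and lists were chosen with earlier results of these data known. Every member is named, with at most 3 called genes per direction from each list, or else at most the gene with the smallest adjusted p; others are said to be named for their values. For want of an annotation of these gene models, no coordinates or lengths are given.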

Additional observations from a re-analysis of the deposited data

Results flagged for a closer look

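In 3 members the line 50 and line 4004 samples moved in opposite directions: each of the 3 line 50 pairs was higher at day 35 than at day 0, and the line 4004 pair was lower. The log2 difference of the lines in this change was -1.45 for BrGID1C Bra009970, -0.80 for BrGID1A Bra039460 and -1.17 for BrRGL3 Bra013973. In the edgeR interaction test the adjusted p was 1 for each. The same pattern was found in 5.31% of all genes tested, and it rests on 1 pair of line 4004 libraries.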

How the results depend on the processing

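The count of members called in line 50 was 3 under every alternative that kept all libraries, and 0 to 3 when libraries were left out. It was 0 without replicate 1 or 2 or any of their single libraries, and 3 without replicate 3. Between the lines at day 0, DESeq2 and the replicate block each called 1 member, where the edgeR fit without the block called 0, and the count was 0 to 5 with libraries left out. At day 35 it was 0 throughout, and for the difference of the lines 0 to 2 with libraries left out. The replicate block changed no other call among the members. All-gene calls for line 50 were 1224, against 2954 with DESeq2, 4876 with the block and 0 to 6352 with libraries left out. Between the lines at day 0 they were 466, against 1564 with DESeq2, 2363 with the block and 277 with counts less 1, and at day 35 they were 139, against 433, 297 and 47.

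Signs turned only for members not called in the comparison concerned. In line 50 Bra024875 was -0.01 with library totals and with no filter and -0.05 with the block. Between the lines at day 0 the block gave -0.34 for Bra017443 and -0.51 for Bra013973, and replicate 3 of line 50 alone gave -0.22 and -0.38. At day 35 BrGID1A was 0.07 with library totals and 0.01 with no filter, the block gave -0.10 for Bra040420, -0.08 for Bra024875 and -0.27 for Bra017443, and replicate 3 alone gave -0.21 for Bra024875 and -0.38 for Bra017443. The difference of the lines for Bra017443 was -0.11 with library totals and -0.16 with replicate 3 alone, and for Bra018476 it was 0.27 with replicate 3 alone. With libraries left out, the values of line 50 were -0.06 to 0.71 for BrGID1A and -0.42 to 0.27 for Bra024875. At day 0 those of Bra013973 were -0.04 to 0.51. At day 35 they were -0.22 to 0.30 for BrGID1A, -0.33 to 0.13 for BrGID1C and -0.01 to 0.54 for Bra017443, and for the difference of the lines -0.39 to 0.31 for Bra024875, -0.19 to 0.39 for Bra017443 and -0.19 to 0.09 for Bra018476. The causes were not tested.

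With raw counts over library totals, the line 4004 log2 ratios of day 35 to day 0 were -0.68 for BrGID1A, -0.64 for BrGID1C, -0.26 for Bra024875 and -0.52 for Bra017443, against -0.53, -0.49, -0.12 and -0.37 with the deposited scaling. The BrGID1B copies at day 0 had 9 to 29 normalized reads in line 50, which limits their folds. The within-library ratios for replicate 3 alone and the marker sums without it were chosen after seeing the data.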
